A study of Saccharomyces cerevisiae SK1 with 6 samples.

Results

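The ZMM genes of budding yeast, ZIP1, ZIP2, ZIP3, SPO22 (also called ZIP4), SPO16, MSH4, MSH5 and HFM1 (also called MER3), were followed in native polyA(+) RNA from meiotic cultures. They were taken by their systematic names, YDR285W, YGL249W, YLR394W, YIL073C, YHR153C, YFL003C, YDL154W and YGL251C, and all 8 were found among the 7071 features of the deposited read counts. Both strains are of the SK1 background and both lack NDT80. SAy841, with NDT80 deleted alone, is the strain called wild type, and SAy966, called *ime4∆*, lacks IME4 as well. Cells were taken after 5 h in the acetate medium SPO, from 3 cultures per strain, and each library of native RNA was run on a flow cell of its own.

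During meiosis, homologous chromosomes are joined along their length by the synaptonemal complex, and a subset of the recombination sites between them becomes crossovers. The ZMM proteins act in both processes: Zip1 builds the central region of the complex, Zip3 is a SUMO ligase at crossover sites, Zip2, Spo22 and Spo16 form one assembly, Msh4 and Msh5 form a MutS heterodimer that binds branched DNA, and Hfm1 is a DNA helicase. Ndt80 is the transcription factor that takes cells out of the pachytene stage, in which synapsis is complete, and Ime4 is the methyltransferase that places m6A on yeast mRNA in meiosis.

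ZMM genes belong to the early meiotic class, many of whose promoters carry the URS1 element, the binding sequence of Ume6. The core letters GGCGGC, or GCCGCC on the other strand, were looked for in the 250 bases before each start codon in the R64 reference assembly (RefSeq). They were present once in each of 4 ZMM promoters and in 4.15% of all 6020 promoters. The search was chosen after the counts had been seen, and the 4 promoters are shown because they belong to the 4 genes whose counts fell in *ime4∆*. Each is written 5′ to 3′ on the strand of the gene, with the core in capitals. The first core letter lies 20 bases before the start codon in ZIP1, 15 in ZIP3, 124 in SPO22 and 88 in SPO16, and ZIP1 and ZIP3 are printed up to the last base before it.
ZIP1 (chromosome IV, + strand): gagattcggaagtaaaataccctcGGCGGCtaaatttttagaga
ZIP3 (chromosome XII, + strand): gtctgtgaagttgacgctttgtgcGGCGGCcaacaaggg
SPO22 (chromosome IX, - strand): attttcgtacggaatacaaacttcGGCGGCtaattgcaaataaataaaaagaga
SPO16 (chromosome VIII, - strand): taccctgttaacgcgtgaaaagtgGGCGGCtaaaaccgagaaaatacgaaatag

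In the windows of ZIP2 and HFM1 (chromosome VII), MSH4 (chromosome VI) and MSH5 (chromosome IV) these letters did not occur. None of these 4 genes was called lower, and whether the core bears on the counts was not tested. A match is a description of the reference sequence and not evidence of a bound site.

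HFM1 and SPO22 also share an intron near the start of the gene whose splicing needs Mer1, a meiosis-specific splicing activator. Mer1 recognises a short intronic enhancer, which was looked for on the sense strand as ACACCCT or ATACCCT in the first 40 bases of introns. Of 310 introns searched in R64, 4 (1.29%) held it, and these were the introns of HFM1, SPO22, REC107 (MER2) and AMA1, the Mer1 targets listed here. Both the enhancer and the list of targets were taken as known, so that the match is a description and adds no support. The first 40 bases of both ZMM introns are shown with the enhancer in capitals, since these are the ZMM members of the Mer1 group. The intron is 152 bases long in HFM1 and 90 in SPO22.
HFM1 intron: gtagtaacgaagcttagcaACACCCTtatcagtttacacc
SPO22 intron: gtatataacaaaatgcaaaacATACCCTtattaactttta

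Libraries held between 177675 and 372270 counts on features, with overlapping depths in both strains. The deleted gene could not check the labels, because the feature named IME4 held 0, 1 and 1 counts in wild type and 0, 0 and 1 in *ime4∆*. YGL188C, a few names away on the same chromosome and singled out after its values were seen, held 45, 28 and 58 counts in wild type and 0 in each *ime4∆* library. NDT80, deleted in both strains, still held 17, 1 and 4 counts in wild type and 13, 9 and 15 in *ime4∆*. Names may thus be displaced from transcripts over part of the genome, and every value below belongs to the reads counted under a name. Of the regulators of meiotic entry, IME1 had between 53 and 82 counts and IME2 between 12 and 47 in each library.

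Of the 8 ZMM names, 4 fell in *ime4∆* (ZIP1, SPO16, SPO22 and ZIP3), 1 rose (MSH4) and 3 (HFM1, ZIP2 and MSH5) did not pass the test, which was edgeR's quasi-likelihood test over 3231 features adjusted by Benjamini-Hochberg, at a threshold of 0.05. All 8 passed the filter on low counts. Among all features tested, 11.9% were lower and 12.3% higher by the same rule, 24.3% in all. The median log2 fold change was -0.56 over the ZMM names and 0.02 over all features tested. Falls came to between 1.78-fold and 2.46-fold, and the rise to 1.81-fold. In RNA from whole cultures, a smaller share of cells in meiotic prophase and less RNA per cell cannot be told apart.

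Levels are given as CPM, counts scaled to a common library size after adjusting the libraries with TMM factors, and 3 counts correspond to between 8.45 and 16.8 CPM. ZIP1, which encodes the transverse filament of the synaptonemal complex, was the most abundant member. It had 2787, 2477 and 2107 CPM in wild-type replicates 1, 2 and 3 and 1118, 1099 and 799.8 CPM in *ime4∆* replicates 1, 2 and 3. Every *ime4∆* library lay well below every wild-type library. The log2 fold change was -1.30 (standard error, SE, 0.17, edgeR adjusted p = 7.65e-05), a 2.46-fold lower level. Among the 7071 features listed ZIP1 ranked 64 by mean CPM.

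ZIP3 (CST9 in the annotation), the SUMO ligase, had 916, 891 and 902 CPM in wild type, the smallest spread of the group relative to its mean (SD 1.40% of the mean). The wild-type values rest on 317, 159 and 267 counts, and counting error was not separated from the spread between cultures. In *ime4∆* it had 533, 384 and 589 CPM, more widely spread but all below wild type. The log2 fold change was -0.83 (SE 0.16, edgeR adjusted p = 0.00174).

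Of the assembly of Spo22, Spo16 and Zip2, SPO22 and SPO16 fell and ZIP2 was not called. SPO22, the scaffold with tetratricopeptide repeats, had 1223, 1289 and 989 CPM in wild type and 651, 610.1 and 484 CPM in *ime4∆*, without overlap. Its log2 fold change was -1.01 (SE 0.16, edgeR adjusted p = 0.000439). SPO16, a small protein that pairs with Zip2 in an XPF-ERCC1-like fold, had 890.3, 650.1 and 642 CPM in wild type and 369.7, 331 and 214 CPM in *ime4∆*. The strains were again separate, and its log2 fold change of -1.29 (SE 0.20, edgeR adjusted p = 0.000362) was close to that of ZIP1. ZIP2, the third partner, was read far less, at 136, 123 and 122 CPM in wild type and 145, 132 and 158 CPM in *ime4∆*. Its ranges overlapped. The log2 fold change of 0.20 (95% interval -0.25 to 0.64, adjusted p = 0.543, edgeR) had an interval whose lower end lay above the estimates for SPO22 and SPO16.

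Of the MutS heterodimer, MSH4 was called and MSH5 was not. MSH4 had 251, 280.2 and 239.8 CPM in wild type and 506, 494 and 397 CPM in *ime4∆*. It was the 1 ZMM name whose *ime4∆* libraries all lay above wild type, with a log2 fold change of 0.85 (SE 0.16, edgeR adjusted p = 0.00121), a 1.81-fold rise. MSH5, the other subunit, had 205, 123 and 162 CPM in wild type and 176, 184 and 214 CPM in *ime4∆*. The ranges overlapped, although *ime4∆* replicate 3 lay above every wild-type replicate, and the log2 fold change was 0.20 (95% interval -0.24 to 0.64, adjusted p = 0.539, edgeR).

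HFM1, the Mer3 helicase, had 1029, 879.9 and 949 CPM in wild type and 797, 878 and 676 CPM in *ime4∆*. The strains almost met, with wild-type replicate 2 and *ime4∆* replicate 2 at nearly the same level. The log2 fold change was -0.29 (95% interval -0.61 to 0.02, adjusted p = 0.175, edgeR). By this measure 6 of the 8 ZMM names had ranges that did not overlap between the strains, HFM1 included by the narrowest gap, against 38.8% of all features tested.

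**Figure D1:**
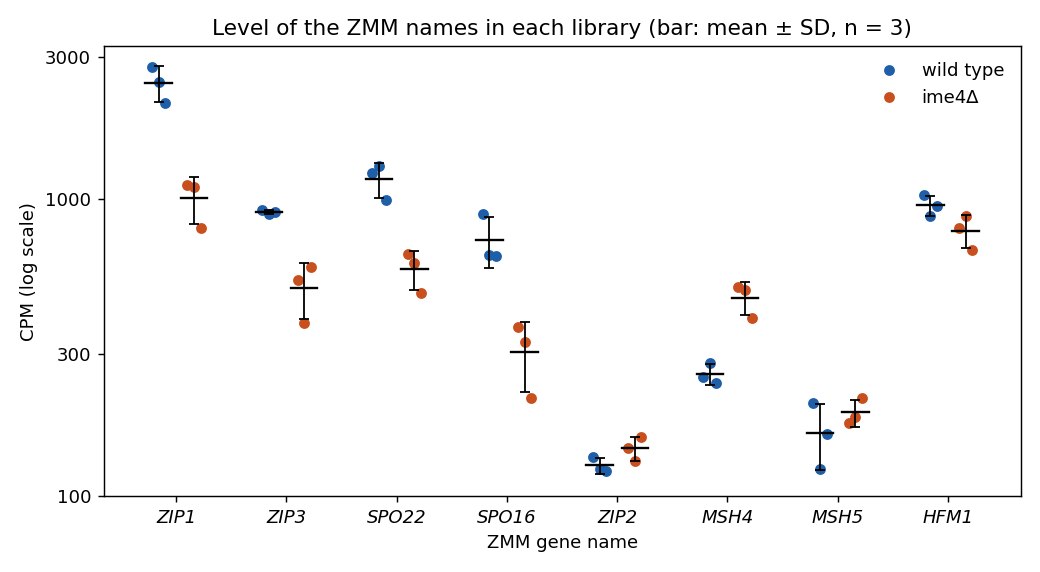
CPM on a log scale for each of the 8 ZMM names, with 1 point per library (blue, wild type; orange, *ime4∆*) and bars for the mean ± SD, n = 3. The orange points lie below the blue in ZIP1, ZIP3, SPO22 and SPO16 and above them in MSH4, while ZIP2 and MSH5 overlap and the strains almost meet in HFM1.

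Compared per kilobase of the annotated gene, the order in wild type was SPO16 at 1218 ± 237, ZIP1 at 935 ± 129, ZIP3 at 623 ± 8.74, SPO22 at 387 ± 52.1, HFM1 at 256 ± 20.1, MSH4 at 97.5 ± 7.90, MSH5 at 60.4 ± 15.1 and ZIP2 at 60.0 ± 3.69 CPM per kilobase (SD, n = 3). Neighbours in this order had separate ranges, except MSH5 and ZIP2, which overlapped. Since 1 nanopore read stands for 1 RNA molecule whatever its length, division by length favours short genes such as SPO16. In CPM without this division, SPO16 had a wild-type mean of 727, below ZIP1 (2457), SPO22 (1167), HFM1 (953) and ZIP3 (903). In *ime4∆* the levels lay closer together. SPO16 had 511 ± 136 and ZIP1 383 ± 67.9 CPM per kilobase (SD, n = 3), with overlapping ranges, and ZIP3 overlapped ZIP1. HFM1, SPO22 and MSH4, at 211 ± 27.4, 193 ± 28.8 and 177 ± 22.7 CPM per kilobase, each overlapped the next in order, although MSH4 had been well below both in wild type. The overlap of HFM1 and SPO22 came with the division by length. In CPM the *ime4∆* libraries of HFM1 (797, 878 and 676) all lay above those of SPO22 (651, 610 and 484).

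**Figure D2:**
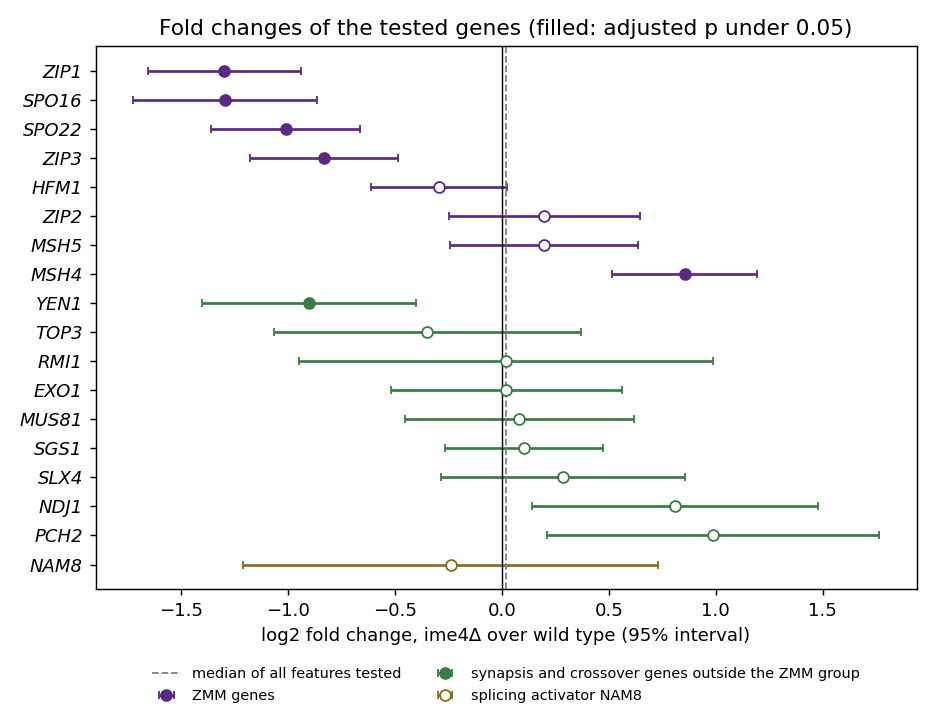
Log2 fold changes of *ime4∆* over wild type with 95% intervals for the 8 ZMM names, the 9 tested synapsis and crossover genes outside the group and NAM8, with filled points for an adjusted p under 0.05. ZIP1, SPO16, SPO22 and ZIP3 lie left of 0, MSH4 lies right of it, and outside the group YEN1 alone is filled; the dashed line is the median of all features tested, 0.02.

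Ratios of reads within a library do not depend on how libraries are scaled, and they were used to compare the members with each other. In wild type there were 0.0902, 0.113 and 0.114 MSH4 reads for each ZIP1 read, and in *ime4∆* 0.453, 0.4498 and 0.496. The mean ratio was 4.41 times higher in *ime4∆*, without overlap (p = 0.1 in a two-sided exact permutation test, which is the smallest value that 3 libraries against 3 can give). Every *ime4∆* library was already above wild type for MSH4 and below it for ZIP1, so that this separation and its p were fixed beforehand. The ratio restates the changes of MSH4 and ZIP1 and adds no support to them. SPO16 kept its ratio to ZIP1, with 0.295 ± 0.0296 reads in wild type and 0.2999 ± 0.0316 in *ime4∆* (SD, n = 3), which differed by less than either SD. HFM1 reads per ZIP1 read rose from 0.392 ± 0.0513 to 0.786 ± 0.0673 (SD, n = 3), again with separate ranges. HFM1 itself was not called, so that this rise restates the fall of ZIP1 and is no rise of HFM1.

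The ratios inside the known assemblies were read in the same way. ZIP2 reads per SPO22 read were 0.111, 0.0957 and 0.123 in wild type and 0.223, 0.216 and 0.326 in *ime4∆*, a mean 2.32 times higher with separate ranges. ZIP2 itself was not called, so that this ratio restates the fall of SPO22. SPO16 reads per SPO22 read were 0.627 ± 0.113 in wild type and 0.518 ± 0.0666 in *ime4∆* (SD, n = 3), which overlapped. MSH4 reads per MSH5 read were 1.23, 2.27 and 1.48 in wild type and 2.88, 2.69 and 1.86 in *ime4∆*. These overlapped (two-sided exact permutation test, p = 0.2, in a design that cannot go below 0.1), so that a difference in change between the MutS subunits was not shown. In all, 11 such ratios were computed.

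**Figure D3:**
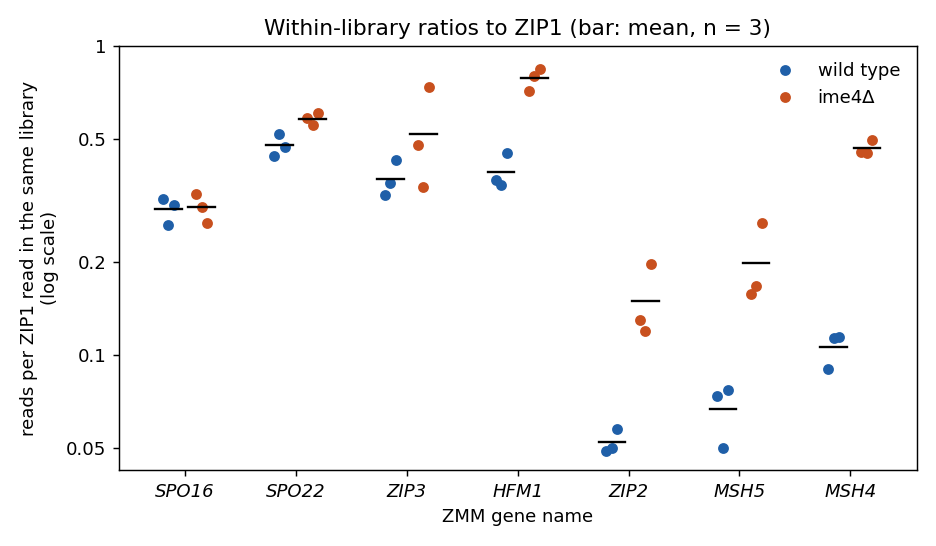
Reads of 7 ZMM names per ZIP1 read in the same library, on a log scale, with 1 point per library (blue, wild type; orange, *ime4∆*) and a bar for the mean, n = 3. SPO16 stays at about the same ratio in both strains, ZIP3 overlaps, and the gap between the strains is widest for MSH4, from a mean of 0.106 to 0.466.

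Together the 8 names took 7438, 6714 and 6112 CPM in wild type and 4296, 4113 and 3531 CPM in *ime4∆*. The sum was 1.70 times higher in wild type. Within the ZMM reads of a library, ZIP1 made up 37.5% (95% Wilson interval 35.6 to 39.4), 36.9% (34.2 to 39.7) and 34.5% (32.3 to 36.7) in wild type. In *ime4∆* its part was 26.0% (23.4 to 28.9), 26.7% (23.7 to 29.9) and 22.6% (20.4 to 25.0). None of the wild-type intervals met one of *ime4∆*. The intervals cover counting error only, so that their separation is no test between cultures, and the shares restate the counts above. MSH4 went from 3.83% ± 0.405 of the ZMM reads in wild type to 11.7% ± 0.398 in *ime4∆* (SD, n = 3). A share also depends on the other names, and the sum of the 8 was lower in *ime4∆*.

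Because names may be displaced, the 5 annotated genes on each side of every ZMM name were read as well. They came to 71 listed names outside the group, of which 44 were tested, 7 fell and 9 rose, 36.4% of those tested against 24.3% of all features. Their median log2 fold change was -0.02, against -0.56 over the ZMM names. ZIP1, ZIP3, SPO16 and HFM1 each stood above all 10 of their neighbours in mean CPM. ZIP1 reached a mean of 1731 CPM over both strains, and the most abundant name around it, INM2, 207 CPM. None of the 5 tested neighbours of ZIP1 was called in either direction.

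SPO22 was different. The names on both sides of it, chosen here after their values were seen, fell with it. SER33, an enzyme of serine synthesis, had a log2 fold change of -1.28 (SE 0.17, edgeR adjusted p = 7.65e-05), and HOP1, a protein of the meiotic chromosome axis, -1.32 (SE 0.20, edgeR adjusted p = 0.000249). Whether reads of one transcript were counted under more than one of these names was not tested. MSH4, ZIP2 and MSH5 did not stand above their neighbours: 2, 5 and 3 of 10 were higher. Next to MSH5, SAS10, a factor of ribosome assembly, rose by 1.21 on the log2 scale (SE 0.26, edgeR adjusted p = 0.00325). Called neighbours went both ways: 2 rose, SAS10 included, and 1 fell around MSH5, and 1 rose and 2 fell around MSH4. Around SPO22 3 fell and 1 rose.

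Ribosomal protein genes served as landmarks, since their mRNAs are abundant in growing yeast, although they fall in starved cells. The nearest ones on either side of the 8 names were 13 genes, with a median percentile of 43.1 among all listed features by mean CPM. They ranged from 9.66, RPL41A, which had 0 counts, to 98.9, RPS24B, only 4 names from SPO22. Distances from member to landmark ran from a few names to over 100. For ZIP1 they were RPS13, 220 names away, at 84.6 and RPP2B, 102 names away, at 65.1. For SPO16 they were RPL42B, 12 names away, at 79.1 and RPS4B, 52 names away, at 68.6. For ZIP3 they were RPS29A, 6 names away, at 56.6 and RPL31B, 10 names away, at 31.1. RPL16A, the other landmark of SPO22, was 59 names away at 43.1. RPS26A, the one landmark for ZIP2 and HFM1, was 57 names from ZIP2 and 59 from HFM1, at 30.0. For MSH4 they were RPL22B, 32 names away, at 38.2 and RPL2A, 37 names away, at 21.1. For MSH5 they were RPL41A, 28 names away, and RPL35B, 16 names away, at 21.1. The ZMM names themselves lay between 75.2 (ZIP2) and 99.1 (ZIP1). The landmarks of MSH4, MSH5, ZIP2 and HFM1 were low, and so was RPL31B, a landmark of ZIP3, at 31.1. RPL16A of SPO22 lay at the landmark median of 43.1. What lay behind the low landmarks was not tested, so that they are no sign of displaced names by themselves. Whether the transcripts counted under any ZMM name are those of the gene was not tested.

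**Figure D4:**
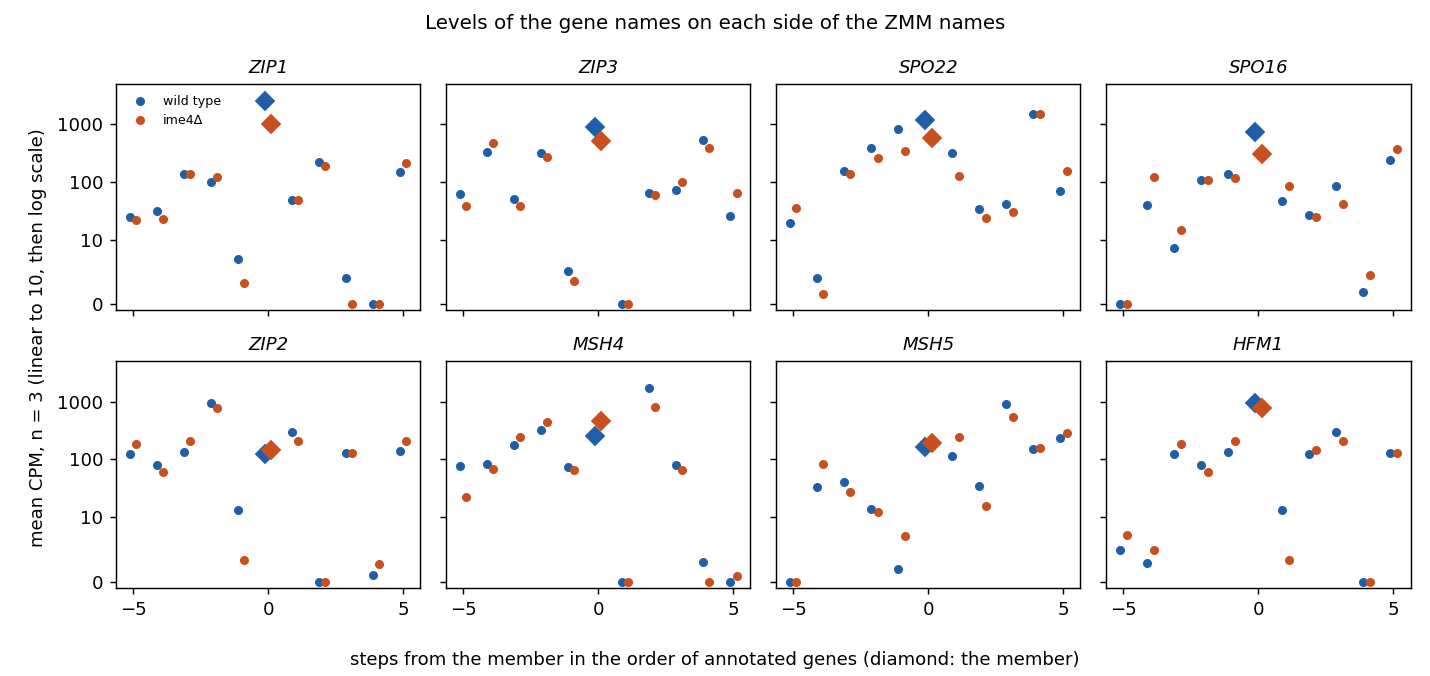
Mean CPM (n = 3 per strain; linear to 10, then log scale) of each ZMM name, drawn as a diamond at step 0, and of the 5 annotated genes on each side of it, drawn as circles in their order (blue, wild type; orange, *ime4∆*). ZIP1, ZIP3, SPO16 and HFM1 stand above all their neighbours, whereas SPO22 has falling names on both sides and 5 of the 10 names around ZIP2 are higher than it.

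Genes of synapsis and crossing over outside the ZMM group were compared next. Of 15 such genes, 9 were tested, and 1 was lower, none higher and 8 did not pass, with a median log2 fold change of 0.08. Among all features tested, 11.9% were lower and 12.3% higher, 24.3% in all. Without adjustment, 3 of the 9 had an edgeR p under 0.05. The share of all features by that rule was not computed, but it is at least the 24.3% called after adjustment. The 3 of 9 are thus not read as a result about these genes. YEN1, a Holliday junction resolvase, had 479.9, 319 and 243 CPM in wild type and 189, 147 and 217 CPM in *ime4∆*. Its wild-type replicates spread widely but stayed above *ime4∆*, with a log2 fold change of -0.90 (SE 0.24, edgeR adjusted p = 0.0111). Without wild-type replicate 1 the log2 fold change was -0.55 (edgeR adjusted p = 0.0833), and without *ime4∆* replicate 2 it was -0.77 (edgeR adjusted p = 0.0519), so that leaving out either library ended the call but kept the direction. None of the 5 ZMM calls was lost when a library was left out.

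SGS1, the helicase that takes recombination intermediates apart with Top3 and Rmi1, was the most abundant of these genes, with 460, 482 and 412 CPM in wild type and 356, 563 and 529 CPM in *ime4∆*. It overlapped between the strains, and its log2 fold change was 0.10 (95% interval -0.26 to 0.47, adjusted p = 0.709, edgeR). MUS81, the nuclease subunit that works with Mms4, had a log2 fold change of 0.08 (95% interval -0.45 to 0.62, adjusted p = 0.849, edgeR). PCH2, an ATPase that removes Hop1 from synapsed chromosomes, had 31.8, 33.6 and 40.5 CPM in wild type and 44.01, 105 and 67.6 CPM in *ime4∆*. NDJ1, a telomere protein of the meiotic bouquet, had 34.7, 56.0 and 40.5 CPM against 83.6, 63.1 and 73.2 CPM. Both were separate between the strains, as were 38.8% of all features tested. Their log2 fold changes were 0.99 and 0.81, and neither passed the test (adjusted p = 0.0617 and 0.0745, edgeR).

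The 6 genes not tested had between 1 and 42 counts over all 6 libraries. They included the central element genes ECM11 and GMC2, with 19 and 4 counts, MLH3, a nuclease of the crossover pathway, with 42, and the nuclease subunits MMS4 and SLX1 with 1 each. GMC2 and ECM11 proteins work beside Zip1 in the synaptonemal complex, and against 2777 counts under the name ZIP1 their names were close to empty.

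On the Mer1 side, 1 of the 4 genes outside the ZMM group was tested and not called. NAM8, the splicing factor that Mer1 acts through, had a log2 fold change of -0.24 (95% interval -1.21 to 0.73, adjusted p = 0.747, edgeR). MER1 itself had 3 counts in all, REC107 had 1 and AMA1 had 30, so that neither the activator nor its other targets could be followed with these counts. Whether depth, low expression or displaced names lay behind the low counts was not tested. The targets inside the group were read 1382 times each, SPO22 with a fall and HFM1 without a call, and the counts do not tell spliced from unspliced RNA.

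The core letters of URS1 were finally set against the counts of all tested names with an R64 promoter, as a description and without a test. Of 133 names with the core, 27 fell (20.3%) and 11 rose (8.27%). Of 2987 names without it, 343 fell (11.5%) and 367 rose (12.3%). With the 4 ZMM genes left out, 23 of 129 names with the core fell (17.8%) and 11 rose (8.53%). The median log2 fold change of these 129 names was -0.01, against 0.02 without the core.

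Over the 6 libraries, the tested names most like the mean log2 CPM of the ZMM genes were EDS1, UFD2 and YBR259W, with Pearson's r of 0.995, 0.995 and 0.994. UFD2, a ubiquitin chain elongation factor, had a log2 fold change of -0.56 (SE 0.15, edgeR adjusted p = 0.0115). YBR259W had -0.60 (SE 0.15, edgeR adjusted p = 0.00828), and EDS1, at -0.40, was not called (SE 0.14, edgeR adjusted p = 0.0548). The mean covers members that moved in opposite directions, such as ZIP1 and MSH4 (Pearson's r of -0.85), so that it does not stand for each member. EDS1, UFD2 and YBR259W were picked for the likeness, which the difference between the strains dominates, and no test was made of it.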

How the data were processed

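PolyA(+) RNA of 3 wild-type and 3 *ime4∆* cultures was read by direct RNA sequencing. The authors base-called with Albacore and filtered with NanoFilt, minimap2 and HTSeq are named in the submitters' processing notes, and the deposited files hold raw read counts per feature for each library, without normalization. Genome build, annotation and strand setting are not given in the sources used here. The 5 summary lines of each file, which held between 24.6% and 27.9% of its reads, stayed out of library sizes and tests.

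The test between strains was that of edgeR 4.0.16, run in R 4.3.3 (filterByExpr, TMM, quasi-likelihood test, Benjamini-Hochberg adjustment over 3231 features, threshold 0.05). The standard error is the log2 fold change divided by the square root of F. On simulated counts for this comparison (3231 features), the test called 66% of features changed by 1 and 93% of those changed by 2 on the log2 scale, and 1 feature when nothing was changed. Exact permutation tests used scipy 1.17.1, and figures matplotlib 3.10.9. Names, lengths, gene order and sequences come from RefSeq R64, in which 6006 of 7071 names matched; its coordinates are not given, since the build of the counts is not known. The p-values set the difference between strains against the spread between libraries, which edgeR estimates with information from all features tested. Each culture had its own library and flow cell, so that spread between cultures cannot be told apart from spread between libraries or runs.

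Genes named are all ZMM members, IME4, the called and the 3 most abundant genes of the other lists, the nearest ribosomal protein genes and the 3 names most like the group; others were chosen after their values were seen. The values of 1 untested gene are not reported here. Members and lists were chosen with earlier results of these data known. Alternatives were a replicate block, DESeq2 1.42.0, RLE or library size scaling, no filter or a minimum of 10 counts, downsampling to 177675 counts and leaving out each library.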

Additional observations from a re-analysis of the deposited data

How the results depend on the processing

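In all 13 alternatives the same 5 ZMM names were called, 4 lower and 1 higher, with adjusted p of at most 0.0102, and HFM1, ZIP2 and MSH5 were not called in any. Scaling by library size alone moved the median log2 fold change of all features from 0.02 to 0.12. Deviations of same-numbered libraries correlated at 0.250, 0.0823 and 0.188, and those of differently numbered ones between -0.199 and 0.0505. Every library thus correlated best with its own number, which is a hint from the data, but the correlation of replicate 2 was weak and no label says that a number marks a shared culture or run, so the numbers were not taken as pairs. A replicate block gave 1028 called features in place of 784, and DESeq2 gave 504.

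Outside the ZMM group, the number called was 1, and it was 2 with the replicate block (1 of them higher), 3 with library size alone (2 higher) and 2 where every library had to reach 10 counts (1 higher). Of all features, 24.3% were called in the main setting, 31.8% with the block, 24.7% with library size alone and 25.8% with that minimum. Leaving out single libraries gave 0 to 2 called, 0 to 1 higher and 0 to 1 lower, and YEN1 lost its call without wild-type replicate 1 or *ime4∆* replicate 2. PCH2 was called with the block, with library size alone and without *ime4∆* replicate 1, and NDJ1 with library size alone and with a minimum of 10 counts. The cause was not tested. Uncalled log2 fold changes near 0 changed sign: RMI1 was -0.056 with the replicate block, and, leaving out single libraries, EXO1 ranged from -0.15 to 0.14, TOP3 from -0.55 to 0.086, RMI1 from -0.42 to 0.39, MUS81 from -0.20 to 0.39 and NAM8 from -0.90 to 0.13. Low counts limit what can be said of the untested genes, which had at most 42 counts in all. The reason for the low counts was not tested.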
